A study of Mus musculus with 75 samples.

Results

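The genes of major histocompatibility complex (MHC) class I antigen presentation were followed through replicative senescence (RS) of mouse skin fibroblasts and after manipulation of the transcription factors E2F4, TEAD1 and ATF3. The set holds 10 of the 24984 genes in the count tables and was fixed by name, without a threshold on any value: the heavy chains H2-K1 and H2-D1, the light chain B2m, the peptide transporter subunits Tap1 and Tap2, the loading factor Tapbp, the immunoproteasome subunits Psmb8, Psmb9 and Psmb10, and the transactivator Nlrc5. All 10 had counts in every passage group.

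RNA-seq gave 44 libraries in 14 groups, and ATAC-seq, which maps open chromatin, gave 13 peak lists. The labels give every sample as skin fibroblasts of the C57BL/6 strain. For RS, untreated cells of 2-month-old female mice were passaged at 1:3 and taken at P1, P3, P5 and P7 (the number is the passage), with 4 RNA libraries each, and with 4 ATAC-seq samples at P1 and 3 at each of the other passages. E2f4 was overexpressed from a doxycycline-inducible lentivirus in pre-senescent P4 cells and compared with an EGFP vector under the same conditions (2 libraries each). E2f4 was knocked down with the hairpin sh1 in proliferating P3 cells (3 libraries, against 3 of the non-targeting hairpin nt), Tead1 with sh3 and sh4 (3 libraries each, against 3 of nt), and Atf3 with sh5 and sh6 in pre-senescent cells (3 libraries each, against 3 of nt). The manipulated primary cells came from 2-month-old and newborn mice, and the labels do not say which libraries came from which. They also do not say whether replicates were separate animals or cultures, so the p-values measure the spread between these libraries, which may be technical.

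Class I molecules carry peptides from proteins made inside the cell to its surface, where cytotoxic T cells read them. The proteasome cuts the proteins, and its immunoproteasome form replaces the catalytic subunits encoded by Psmb5, Psmb6 and Psmb7 with those of Psmb8, Psmb9 and Psmb10. The TAP transporter moves the peptides into the endoplasmic reticulum, tapasin (Tapbp) holds the empty class I molecule beside it, and the heavy chain binds its peptide together with B2m. NLRC5 acts on the conserved SXY module of class I promoters, and interferons raise most of these genes through IRF and STAT factors.

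On the GRCm38 assembly, 7 of the 10 genes lie on chromosome 17 between 33919478 and 35267497, a span of 1.35 Mb, in the order Tapbp (chr17:33919478-33929290), H2-K1 (chr17:33996012-34000619), Psmb9 (chr17:34182030-34187330), Tap1 (chr17:34187556-34197225), Psmb8 (chr17:34198195-34201454), Tap2 (chr17:34204479-34216321) and H2-D1 (chr17:35263094-35267497). B2m lies on chromosome 2 (chr2:122147687-122153082). Psmb10 (chr8:105935728-105938392) and Nlrc5 (chr8:94434335-94527272) lie on chromosome 8. Tap1 and Psmb9 are divergent neighbours whose start sites are 226 bases apart, so that a single ATAC-seq peak can cover both.

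The 250 bases upstream of the start sites of the heavy chains, of B2m, of Tap1 and of Psmb8 are shown because the promoters of the first 3 carry the same spaced pair of motifs, and because Tap1 and Psmb8 were among the most responsive genes below. The sequences are those of RefSeq on GRCm38.p6, written 5′ to 3′ on the strand of the gene: chr17:34000348-34000597 (minus strand) for H2-K1, chr17:35262844-35263093 (plus) for H2-D1, chr2:122147437-122147686 (plus) for B2m, chr17:34187306-34187555 (plus) for Tap1 and chr17:34197945-34198194 (plus) for Psmb8. Capitals mark matches, on either strand, to an IRF core (GAANNGAAA), an NF-kB site (GGGANTNCC), a STAT site (GAS, TTCNNNGAA), the core of the X2 or CRE element (TGACG) and the Y box (CCAAT, which reads ATTGG on the other strand).
H2-K1: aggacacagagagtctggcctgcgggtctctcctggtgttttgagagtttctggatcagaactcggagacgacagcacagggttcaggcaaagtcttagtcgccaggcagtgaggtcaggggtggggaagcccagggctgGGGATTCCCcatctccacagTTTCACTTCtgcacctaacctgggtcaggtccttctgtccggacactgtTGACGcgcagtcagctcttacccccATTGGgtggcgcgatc
H2-D1: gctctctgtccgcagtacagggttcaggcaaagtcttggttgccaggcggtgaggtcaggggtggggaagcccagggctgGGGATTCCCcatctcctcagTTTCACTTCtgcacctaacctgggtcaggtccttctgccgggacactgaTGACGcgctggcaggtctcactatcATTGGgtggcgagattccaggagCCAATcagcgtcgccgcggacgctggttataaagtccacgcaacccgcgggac
B2m: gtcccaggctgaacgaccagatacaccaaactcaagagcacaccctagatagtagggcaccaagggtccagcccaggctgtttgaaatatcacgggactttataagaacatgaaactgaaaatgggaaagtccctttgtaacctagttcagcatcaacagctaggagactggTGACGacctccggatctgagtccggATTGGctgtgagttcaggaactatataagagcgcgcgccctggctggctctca
Tap1: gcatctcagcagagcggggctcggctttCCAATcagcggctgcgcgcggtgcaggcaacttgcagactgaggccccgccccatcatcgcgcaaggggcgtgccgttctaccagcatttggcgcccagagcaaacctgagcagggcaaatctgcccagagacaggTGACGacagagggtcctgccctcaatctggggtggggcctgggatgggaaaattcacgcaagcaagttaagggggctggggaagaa
Psmb8: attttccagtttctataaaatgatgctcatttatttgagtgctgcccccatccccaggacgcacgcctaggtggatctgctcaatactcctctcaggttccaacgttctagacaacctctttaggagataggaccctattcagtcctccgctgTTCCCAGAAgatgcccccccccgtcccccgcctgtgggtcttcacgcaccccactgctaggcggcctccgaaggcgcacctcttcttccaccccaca

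Of the 10 genes, 8 had an entry among the RefSeq promoters, which cover 250 bases before to 50 bases after the start, and Tap2 and Nlrc5 had none. The IRF core occurred in H2-K1 and H2-D1, against 7.52% of 32851 mouse promoters of the same length, and so did the NF-kB site, against 3.95%. Other spacings were not searched. The B2m sequence holds gaaactgaaa and gggaaagtccc, which resemble these motifs with a longer spacing and were not counted, so B2m cannot be said to lack such sites. In both genes the IRF core began 20 bases after the NF-kB site. The STAT site occurred in Psmb8, at -97 from the start site, against 8.30% of all promoters. TGACG occurred in 5 of the 8 genes (H2-K1, H2-D1, B2m, Tap1 and Psmb9), against 20.8% of all promoters, and CCAAT in 6 (the same 5 and Tapbp), against 37.4%. In H2-K1, H2-D1 and B2m, ATTGG began exactly 25 bases after TGACG on the strand of the gene, an arrangement found in 19 of the 32851 promoters (0.0578%). The spacing was noticed in these promoters and then counted, so the share is a description. None of the 5 motifs was found in the Psmb10 window. The H2-K1 and H2-D1 windows, of 300 bases each, were identical at 220 of the 361 positions of their alignment (60.9%). With the second H2-K1 start it was 232 of 347 (66.9%). These lengths include positions held by only 1 window, as the NF-kB site began at base 141 in H2-K1 and 81 in H2-D1. The share over the paired bases is therefore higher. Matches to letters are not binding sites, and no binding data were used.

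**Figure D1:**
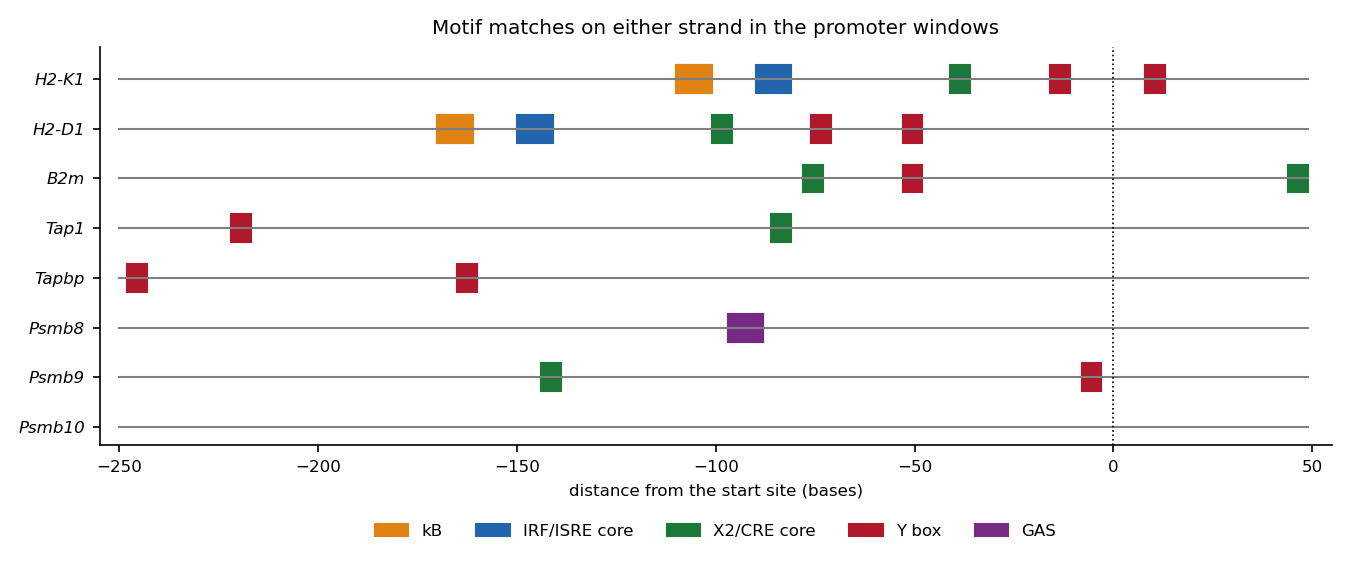
Motif matches in the promoter windows of the 8 genes with a RefSeq promoter, by distance from the start site in bases (x axis), with a box for each match on either strand, coloured by motif. H2-K1, H2-D1 and B2m share the pair of green and red boxes 25 bases apart, the heavy chains also share the orange and blue pair 20 bases apart, Psmb8 holds the STAT site (GAS) and Psmb10 holds no match.

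Levels are CPM, the per-million scaling of counts to library size after TMM normalization, and tests are edgeR's quasi-likelihood test with Benjamini-Hochberg adjustment over all genes of an experiment, with an adjusted p under 0.05 taken as passing. Libraries held 9.15 to 27.6 M counts, and 13.4 to 15.7 M in the passage series. Psmb9 rested on 1 to 38 counts per library and the other members on 12 to 11499. Replicates differed by more than counting error (chi-square per degree of freedom of 2.74 to 59.9 over 50 pairs), and no library was a copy of another. Fibroblast markers were abundant throughout the passages, with 8 genes summing to 19160 to 21490 CPM at P1 and 31610 to 33900 CPM at P7. Lymphocyte markers were near 0, at no more than 0.342 CPM at P1 in sum over 6 genes, 3 of which were at 0. Markers of other cell types were clearly present at P1: 12 macrophage markers summed to 345 to 534 CPM at P1, then 49.4 to 68.0 CPM (P3), 23.6 to 33.4 CPM (P5) and 35.8 to 57.1 CPM (P7). Endothelial, skeletal muscle and keratinocyte markers fell likewise from P1 to P3.

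To learn how class I presentation changed with RS, each passage was compared with P1. The genes of the pathway were lower at late passage, but unequally. Psmb8 and Psmb9 fell furthest, Nlrc5 and H2-K1 followed, H2-D1, Tap1, Tap2 and Tapbp fell by smaller amounts, and B2m and Psmb10 did not pass the test. At P7 against P1, 8 of the 10 genes were lower and passed, where 31.9% of all 13442 genes tested were lower, and 4 (H2-K1, Psmb8, Psmb9 and Nlrc5) were lower by more than 2-fold, where 13.3% of all genes were. The median log2 fold change of the 10 genes was -0.70, and that of all genes was -0.01.

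The heavy chain H2-K1 presents peptides itself and was the most abundant heavy chain of the set. Its CPM was 256, 219, 257 and 219 in P1 libraries, 169, 147, 155 and 139 in P3, 137, 147, 165 and 201 in P5, and 137, 108, 102 and 110 in P7. Every library of P3, P5 and P7 lay below every P1 library, and P7 also lay below P3 without overlap. From P1 to P7 the log2 fold change was -1.06 (SE 0.12, adjusted p = 2.0e-07), from 238 ± 21.7 to 114 ± 15.4 CPM (SD, n = 4 each). The second heavy chain, H2-D1, had 68.1, 57.8, 68.4 and 57.4 CPM at P1 and 48.5, 34.1, 34.0 and 34.2 CPM at P7, where the first replicate stood above the other 3. Its log2 fold change was -0.74 (SE 0.14, adjusted p = 0.00017). Counts of H2-D1 carry some doubt, since 4.09% of its 100-base windows occur in other genes such as H2-Q1 and H2-T23, while no window of H2-K1 does.

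B2m, the light chain shared by all class I molecules, had 529, 533, 603 and 584 CPM at P1 and 591, 465, 477 and 595 CPM at P7. The groups overlapped, and the log2 fold change was -0.08 (SE 0.11, adjusted p = 0.56). At P3 (576 to 695 CPM) and at P5 (485 to 704 CPM) it lay in the same range. The heavy chains thus fell in libraries in which their partner was measured at about the same level, and the difference in fold between them was not itself tested.

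Tap1 and Tap2 form the transporter. Tap1 had 27.7, 24.2, 23 and 22.3 CPM at P1 and 15.8, 14.9, 14.8 and 16.2 CPM at P7, without overlap (log2 fold change -0.65, adjusted p = 0.0019). At P5 the fourth replicate reached 29.9 CPM and the others lay at 15 to 19.0 CPM. That library alone kept Tap1 at P5 from passing: the log2 fold change against P1 was -0.27 (adjusted p = 0.17), and -0.53 (adjusted p = 0.0014) without it. Tap2 fell early, from 47.9 to 49.5 CPM at P1 to 27.8 to 39.4 CPM at P3, and then stayed at 31.3 to 40.7 CPM at P7 (log2 fold change -0.48, adjusted p = 0.0012). Tapbp went from 116 to 140 CPM at P1 to 64.1 to 88.0 CPM at P3 and 76.5 to 93.3 CPM at P7 (log2 fold change -0.58, adjusted p = 0.00072). The P7 libraries of Tap2 and Tapbp overlapped those of P3, so that their decrease was seen between P1 and P3. Other annotated genes overlap Psmb8, Tap2 and Tapbp, and the counting ignored strand, so their reads cannot be fully told apart.

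Psmb8 encodes the immunoproteasome subunit beta5i. It had 25.7, 24.9, 32.8 and 22.2 CPM at P1, 15.2, 14.3, 10.6 and 9.73 CPM in the P3 libraries, 8.08, 7.95, 9.24 and 12.7 CPM in those of P5, and 5.50, 2.62, 3.54 and 3.41 CPM in those of P7. From P1 to P7 it fell by 2.80 on the log2 scale (SE 0.22, adjusted p = 1.4e-09), from 26.4 ± 4.55 to 3.77 ± 1.22 CPM (SD, n = 4 each). The decrease from P1 passed at P3, P5 and P7, and every P7 library lay below every P5 library. Psmb9 (beta1i) was scarce, with 102 counts over the 4 P1 libraries, 58 in P3, 51 in P5 and 13 in P7. Its CPM was 1.64, 2.11, 2.05 and 1.05 at P1 and 0.458, 0.154, 0.231 and 0.148 at P7 (log2 fold change -2.74, SE 0.52, adjusted p = 0.00012). Psmb10 (beta2i) behaved otherwise: it went from 16.6 to 21.8 CPM at P1 to 11.3 to 15 CPM at P3 (log2 fold change -0.48, adjusted p = 0.032), and overlapped P1 again at P7 (13.6 to 20.9 CPM, log2 fold change -0.21, adjusted p = 0.29).

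Nlrc5, the transactivator, had 27.4, 28.4, 33.1 and 31.2 CPM at P1, 14.5, 16.5, 19.3 and 16.8 in P3 libraries, 13.6, 16.6, 14.5 and 17.4 in P5 libraries, and 9.85, 11.3, 11.8 and 10.5 in P7 libraries. No library of a later passage reached the lowest P1 library, and P7 did not overlap P3 or P5. P7 stood at a log2 fold change of -1.46 from P1 (SE 0.12, adjusted p = 2.0e-09).

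**Figure D2:**
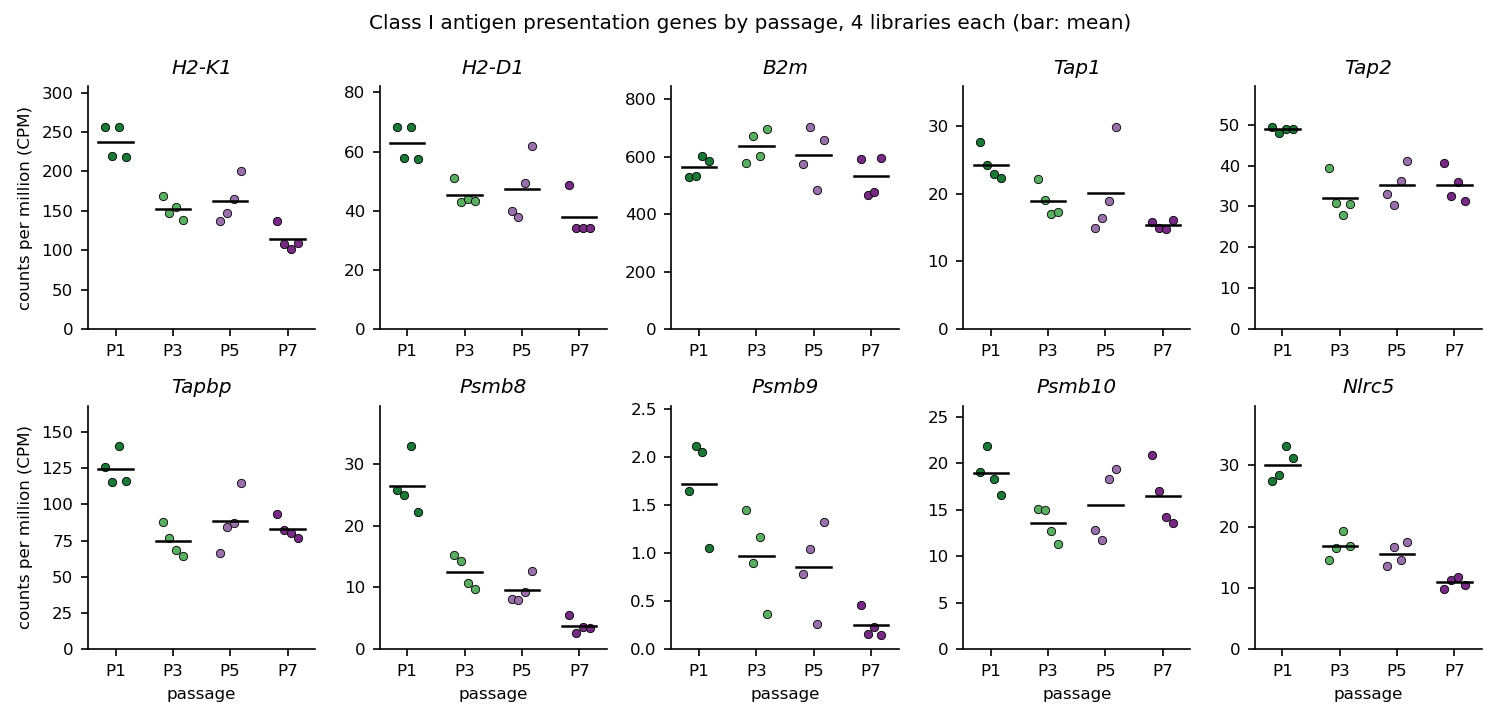
CPM (y axis, from 0, a separate scale for each gene) of the 10 genes at P1, P3, P5 and P7 (x axis), with a point for each of the 4 libraries and a bar at the mean. Psmb8 goes from a mean of 26.4 to 3.77 CPM and Nlrc5 from 30.0 to 10.9 CPM from P1 to P7, while the B2m and Psmb10 points of P1 and P7 overlap.

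The timing differed between steps. At P3 against P1, 7 of the 10 genes were lower and passed, where 17.5% of all genes did, and Psmb8 alone was lower by more than 2-fold, where 6.58% of all genes were. The members' median log2 fold change was -0.62 and that of all genes was 0.00. At P5 against P1, 7 were lower (26.1% of all genes), Psmb8 and Psmb9 by more than 2-fold (10.1% of all genes), and the median was -0.49. The Psmb9 call at P5 passed in 4 of 13 alternatives of the analysis. Between P3 and P5 none of the 10 passed, where 13.4% of all genes were higher and 15.3% lower, and by an unadjusted p none of the 10 was under 0.05. At P7 against P5, 4 genes were lower (H2-K1, Psmb8, Psmb9 and Nlrc5), where 9.10% of all genes were, and Psmb8 (-1.33) and Psmb9 (-1.74) by more than 2-fold, where 2.28% of all genes were. The Psmb9 call at this step was lost when any of 6 of the 8 libraries was left out (all but P5 replicate 3 and P7 replicate 1), with adjusted p of up to 0.10. At P7 against P3 the same 4 genes were lower (26.5% of all genes), with Psmb8 (-1.73) and Psmb9 (-1.94) by more than 2-fold (7.41% of all genes). H2-K1 had a log2 fold change of -0.42 and Nlrc5 of -0.63 in that comparison. These comparisons share libraries and are not independent. In bulk RNA, fewer cells of a type and less RNA per cell cannot be told apart.

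The markers of other cell types moved with the early step. At P3 against P1, 12 of 12 macrophage markers were lower (median log2 fold change -3.55), and so were 5 of 5 endothelial, 5 of 5 skeletal muscle and 4 of 4 tested keratinocyte markers. At P7 against P1, 11 of 12 macrophage markers were lower (median -4.87). Their part in the decrease of the class I genes from P1 was not tested. At P7 against P5, Psmb8, Psmb9, Nlrc5 and H2-K1 fell again. At that step 0 of 12 macrophage markers were lower and 1 (Csf1r) was higher (median 0.30), with none of the 12 at 0 throughout P5 or P7. Most were already scarce at P5. Mean CPM there was 0.133 for Adgre1, 0.132 for Ptprc, 0.197 for Tyrobp and 0.245 for Fcer1g. It was 0.482 for C1qb, 0.514 for C1qc, 0.562 for Mrc1 and 0.695 for C1qa. A further fall in these could hardly have passed, so a change in macrophage content at this step cannot be read from them. The 5 endothelial markers still fell in sum, from 11.12 to 14.31 CPM at P5 to 7.33 to 10.03 CPM at P7. Of them only Pecam1 passed (log2 fold change -1.77, adjusted p = 0.045). No tested skeletal muscle or keratinocyte marker passed, and the sums of both lists overlapped. The part of the endothelial markers in this later decrease was not tested.

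To compare genes with each other, CPM was divided by exon length in kb. At P1 the order was B2m (655 CPM per kb), H2-K1 (143), Tapbp (45.3), H2-D1 (36.3), Psmb8 (21.6), Tap2 (19.6), Psmb10 (14.9), Tap1 (8.23), Nlrc5 (4.32) and Psmb9 (2.13). Psmb8 (18.1 to 26.8 CPM per kb over the P1 libraries) and Tap2 (19.2 to 19.9) overlapped, and no other neighbours in this order did. By P7 Psmb8 had moved from rank 5 to rank 8, at 3.08 CPM per kb, below Tap1 (5.23 CPM per kb). B2m made up 68.9% of the sum over the 10 genes per kb at P1 and 79.7% at P7.

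The immunoproteasome subunits were also set against the constitutive subunits they replace, as a ratio of counts within a library, which needs no scaling between libraries. Of Psmb8 there were 51.1 to 75.6 counts per 100 of Psmb5 at P1 (median 53.2), 28.4 to 39.8 at P3, 14.8 to 21.9 at P5 and 4.20 to 7.35 at P7 (median 7.04). No passage overlapped the next, and the ratio was 9.20 times lower at P7 than at P1 (log2 difference -3.20). For Psmb9 per 100 counts of Psmb6 the median was 2.35 at P1 (1.54 to 2.78) and 0.255 at P7 (0.177 to 0.420), a log2 difference of -3.06. For Psmb10 per 100 counts of Psmb7 it was 14.5 at P1 (13.9 to 17) and 12 at P7 (11.2 to 12.3), a log2 difference of -0.33. By a two-sided exact permutation test, 6 of the 9 comparisons of P3, P5 and P7 with P1 passed (p = 0.0286, the smallest that 4 against 4 allows, and 0.0429 after adjustment over the 9). These were Psmb8/Psmb5 at all 3 passages, Psmb9/Psmb6 at P5 and P7, and Psmb10/Psmb7 at P7. The other 3 had p = 0.114 in the same exact test. Of the constitutive genes, Psmb5 rose at P7 (log2 fold change 0.37, adjusted p = 0.034), while Psmb6 (0.18) and Psmb7 (0.13) did not pass.

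**Figure D3:**
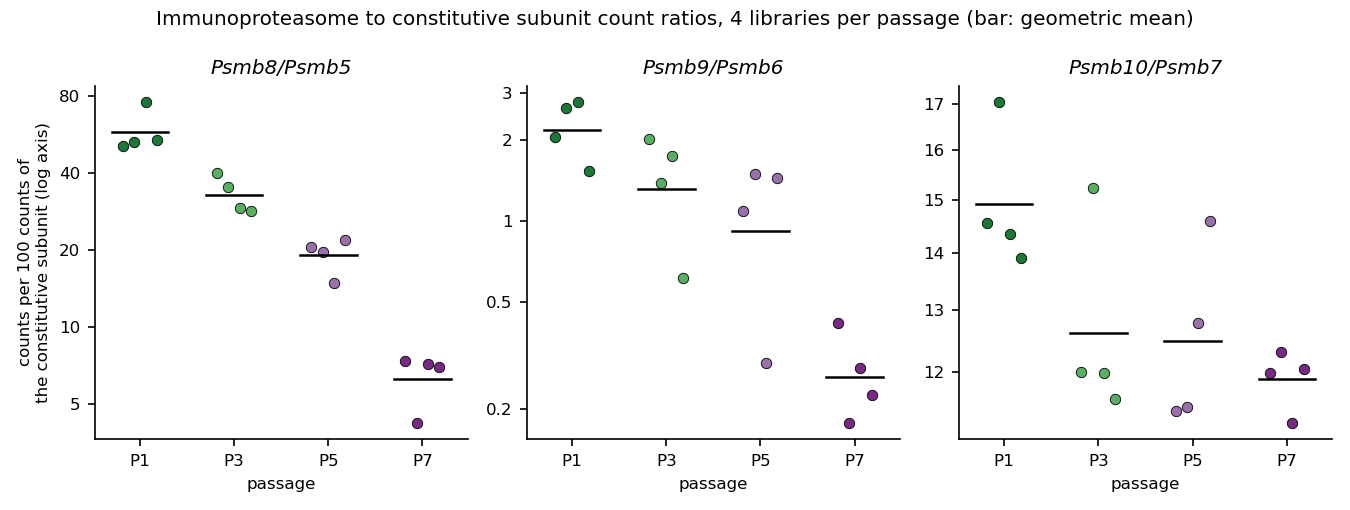
Counts of Psmb8, Psmb9 and Psmb10 per 100 counts of Psmb5, Psmb6 and Psmb7 (y axes, log scale, different in each panel) at P1, P3, P5 and P7 (x axis), with a point for each of the 4 libraries and a bar at the geometric mean. Psmb8/Psmb5 steps down at every passage, from a median of 53.2 to 7.04, and Psmb10/Psmb7 goes from 14.5 to 12.

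The lists of other genes around the pathway are read against all genes at P7 against P1, of which 30.5% were higher and 31.9% lower. Of 18 further class I or class I-like heavy chains, 9 were tested, 3 were higher and 2 lower (median log2 fold change -0.06). H2-Q10 (-4.05) and H2-Q4 (-2.50, from 49.7 to 8.78 CPM), nonclassical chains, fell, while H2-T23 (Qa-1) rose from 31.4 to 56.3 CPM (0.84) and Mr1, which presents vitamin B metabolites, rose by 0.72. Of 10 peptide supply and loading genes, 3 were lower, a share near that of all genes, and 0 higher (median -0.15), among them Hspa5 (-0.38), an endoplasmic reticulum chaperone, and Erap1 (-0.35), which trims peptides. Of 19 tested regulators, 9 were lower and 2 higher (median -0.31). Irf1, an activator of class I genes, fell by 0.96 on the log2 scale, and Creb1, which binds the X2 element, fell by 0.80, while the interferon receptor chain Ifngr2 rose by 1.24. Of 19 tested interferon-stimulated genes, 15 were lower and 1 higher (median -1.06), with Oasl2 at -2.64 and Ifit3 at 1.24. Of 6 class II genes, 3 were lower and 2 higher: Cd74 and H2-Aa fell (-2.69 and -6.00), and the loading genes H2-DMa and H2-DMb1 rose (1.38 and 1.56). At P7 the mean was 0.0186 CPM for H2-Aa and 0.0954 CPM for H2-Q10, so the size of their fold changes rests on very few counts there.

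Across the 16 passage libraries, the 5 genes outside the set whose log2 CPM followed the mean z-score of the 10 members most closely were Apoe (Pearson r = 0.947), Bst2 (0.932), Pcif1 (0.928), Ntn1 (0.923) and Lrp3 (0.923). Passage and the markers of other cell types move together over these libraries, so these values are a description. Bst2 is itself interferon-stimulated, and fell from 67.8 to 32.0 CPM from P1 to P7. Of the targeted transcription factors, Atf3 was higher at P7 than at P1 (log2 fold change 0.93, adjusted p = 0.0022), E2f4 was lower (-0.27, adjusted p = 0.012), and Tead1 did not pass (0.12, adjusted p = 0.42). These end points leave out the middle passages, where mean Tead1 was 473 CPM at P3 and 397 CPM at P5, against 378 CPM at P7. The paper reports that Tead1 increased from early passaging.

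Next, promoter accessibility was compared. In each ATAC-seq sample, the strongest peak within 1000 bases of a start site was ranked among all peaks of that sample by -log10 p, so that 100 is the strongest peak of the sample and 0 stands for no peak. Of the 10 genes, 9 had such a peak in all 13 samples. Over 20923 start sites, 66.2% had a peak in every P1 sample and 28.2% in none, and the median percentile over all sites was 88.6 at P1 and 86.4 at P7. B2m had the strongest promoter peaks of the set, at 98.6 ± 0.496 at P1 (SD, n = 4) and 98.4 ± 0.434 at P7 (SD, n = 3).

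The promoter of Psmb8 kept its peak while its RNA fell. Its percentile was 94.3 to 95.8 at P1, 94.6 to 95.9 at P3, 97.0 to 97.9 at P5 and 95.6 to 96.4 at P7 (P7 against P1, two-sided exact permutation p = 0.114). Its fold enrichment over background, as MACS2 gave it, was 13.6 to 14.8 at P1 and 19.1 to 20.8 at P7, while the median of all peaks in a list was 4.38 to 4.68 at P1 and 5.03 to 5.49 at P7. The strongest peak covered the start site itself in 4 of 4 samples at P1, 3 of 3 at P3, 2 of 3 at P5 and 1 of 3 at P7, and otherwise lay upstream of it, ending 120 to 291 bases before the start. The shared promoter of Tap1 and Psmb9 stood at 93.6 ± 1.32 at P1 and 92.2 ± 2.53 at P7 (exact permutation p = 0.457).
The heavy chain promoters stood at 90.2 ± 0.667 at P1 and 89.3 ± 2.08 at P7 for H2-K1 (exact permutation p = 0.40), and at 93.6 ± 1.18 and 94.7 ± 1.32 for H2-D1 (exact permutation p = 0.257), and Psmb10 at 86.9 ± 2.00 and 86.5 ± 4.55 (exact permutation p = 0.914). Tap2 varied widely within passages, from 49.6 to 90.9 at P1 and from 55.2 to 91.6 at P7, where the strongest peak lay on the start site in 7 of the 13 samples and began 485 to 536 bases downstream in the other 6.

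Tapbp was the member whose promoter peak ranked lower at P7 without overlap, at 74.8 to 78.1 at P1 and 69.6 to 72.9 at P7 (exact permutation p = 0.0286, the smallest that 3 against 4 allows, without adjustment for the sites tested). Among all 15432 start sites compared, 31.2% were lower without overlap and 12.8% were higher without overlap, so that 1 lower and 0 higher of 9 is no result about these genes. The strongest Tapbp peak began 639 to 709 bases downstream of the start in 10 of the 13 samples, and covered the start in 2 of 4 at P1 and in none of 3 at P7. Nlrc5 had no peak within 1000 bases of its curated start site in any of the 13 samples, with the nearest 1608 to 13264 bases away, although 10 to 19 peaks lay over the gene. At its outermost annotated base, 94434335, the peak ranked between the 69.3 and 79.96 percentiles. For Psmb8, Psmb9 and H2-K1, whose RNA fell by more than 2-fold, a lower promoter peak was not detectable with 3 and 4 samples. The lists hold no read counts, so the depth behind these percentiles is unknown.

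**Figure D4:**
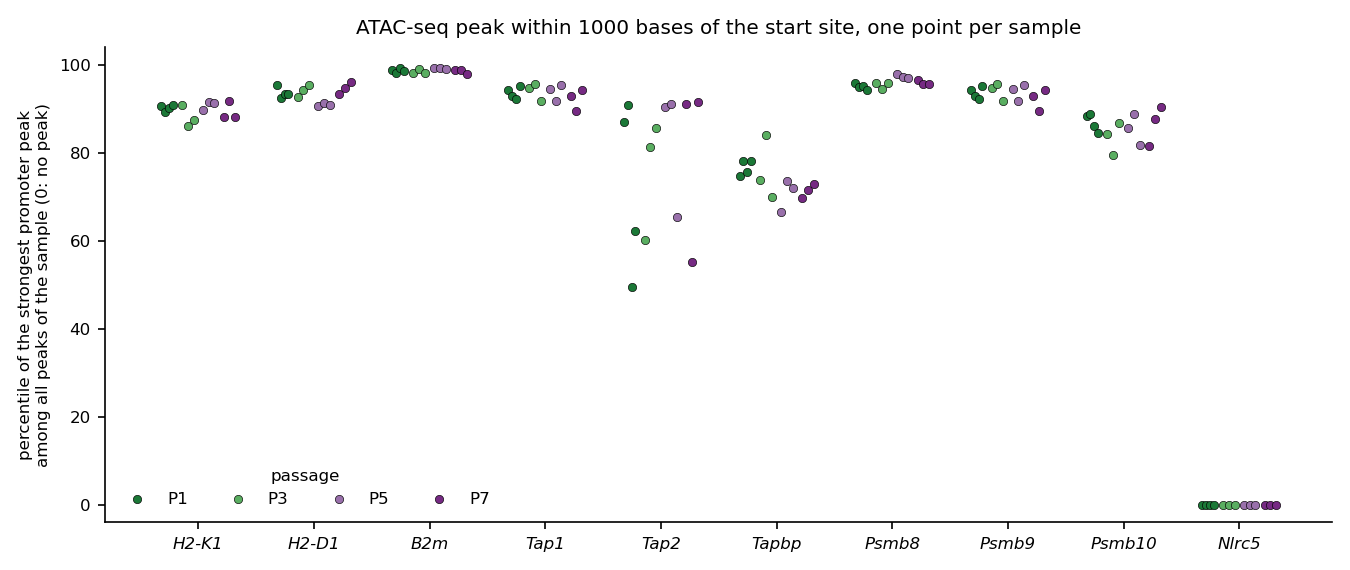
Percentile (y axis) of the strongest ATAC-seq peak within 1000 bases of the start site of each gene, with a point for each of the 13 samples (4 at P1 and 3 at each of P3, P5 and P7), coloured by passage. The Psmb8 points of all passages lie between 94.3 and 97.9, Tap2 spreads from 49.6 to 91.6 within passages, and Nlrc5 is at 0 in all samples.

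To see how the pathway responded to the 3 transcription factors, each manipulation was compared with its own control. The targeted gene was checked first. E2f4 went from 35.5 and 47.5 CPM with vector to 1118 and 1180 CPM with overexpression, and from 59.6 to 60.8 CPM with nt to 20.4 to 21.8 CPM with sh1. Tead1 went from 508 to 572 CPM with nt to 268 to 285 CPM with sh3 and 313 to 320 CPM with sh4. Atf3 was low throughout, at 2.77 to 3.31 CPM with nt, 0.451 to 2.10 CPM with sh5 (log2 fold change -1.14, adjusted p = 0.045) and 1.51 to 2.09 CPM with sh6 (-0.79, adjusted p = 0.11), so that with sh6 the target was lower in all 3 libraries without passing. Macrophage markers were far below their P1 level in the manipulated cells, with sums of 8.87 to 24.6 CPM.

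After E2f4 overexpression, 7 of the 10 genes were higher and passed, where 28.9% of all genes were, and Tap1, Psmb8 and Nlrc5 were higher by more than 2-fold, where 7.69% of all genes were. The members' median log2 fold change was 0.82 and that of all genes was 0.01. Psmb8 had 0.786 and 1.15 CPM with vector and 3.93 and 3.92 CPM with E2f4 (log2 fold change 2.04, SE 0.30, adjusted p = 0.00025). Nlrc5 went from 2.31 and 1.90 to 4.83 and 6.69 CPM (1.43, adjusted p = 0.00082), and Tap1 from 12.8 and 11.9 to 26.6 and 29.5 CPM (1.18, adjusted p = 6.8e-05). The heavy chains rose together, H2-K1 from 45.4 and 47.0 to 79.6 and 79.8 CPM (0.79) and H2-D1 from 13.1 and 15.3 to 25.7 and 25.2 CPM (0.85). Tapbp (0.61) and Psmb10 (0.75) also rose. B2m had 268 and 312 CPM with vector and 263 and 227 CPM with E2f4 (-0.24, adjusted p = 0.099), and Tap2 (0.08) and Psmb9 (0.99, adjusted p = 0.14) did not pass.

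Under overexpression, 4 of 18 interferon-stimulated genes tested were higher and 4 lower (median log2 fold change -0.08), where 28.9% of all genes were higher and 28.2% lower, and the difference from the 10 genes was not tested. The summed CPM of the list was 116 in both E2f4 libraries and 134 and 138 with vector. Of 8 further heavy chains tested, 1 was higher and 2 lower, and the higher gene was H2-Q4, with 1.48 and 1.79 CPM with vector and 14 and 15.8 CPM with E2f4. The constitutive Psmb6 (0.62) and Psmb7 (0.69) rose, and Psmb5 (0.20) did not pass. Reads on no feature made up 11.5% and 10.8% in the vector libraries against 6.01% and 5.64% in the E2f4 libraries. The part of that difference in the results was not tested, and there were 2 libraries per group.

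After E2f4 knockdown with sh1, 9 of the 10 genes had enough counts to be tested, and 7 were higher and passed, where 10% of all genes were. Psmb8 alone was higher by more than 2-fold, where 1.46% of all genes were. The members' median log2 fold change was 0.60. Psmb8 had 3.11, 1.67 and 3.00 CPM with nt and 6.99, 10.4 and 12.6 CPM with sh1 (log2 fold change 1.93, SE 0.28, adjusted p = 0.00025). Tap1 went from 14.9, 16.6 and 19.1 to 33.2, 33.4 and 32.4 CPM (0.97, adjusted p = 4.8e-05), Tap2 by 0.79 and Tapbp by 0.50. B2m rose here, from 191, 206 and 222 to 304, 344 and 345 CPM (0.68, adjusted p = 2.5e-05), as did H2-K1 (50.6, 52.2 and 52.5 to 69.8, 62.6 and 84.9 CPM, 0.48) and Psmb10 (0.39, adjusted p = 0.040). H2-D1 (0.16, adjusted p = 0.40) and Nlrc5 (0.60, adjusted p = 0.23) did not pass, and Psmb9 had 6 counts in the 3 nt libraries and 15 in the 3 sh1 libraries and was not tested.

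With sh1 the interferon-stimulated genes rose as a list, 19 of 19 tested being higher (median log2 fold change 2.15), from summed levels of 179 to 228 CPM with nt to 540 to 770 CPM. Their part in the higher class I genes was not tested. Of 8 other heavy chains tested, 5 were higher and 0 lower, and of 19 regulators 4 were higher and 0 lower. Thus Psmb8, Tap1, Tapbp, H2-K1 and Psmb10 were higher both when E2f4 was raised and when it was lowered, each against its own control, in cells of different passage. The call for Psmb10 with sh1 passed in 3 of 11 alternatives of the analysis.

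**Figure D5:**
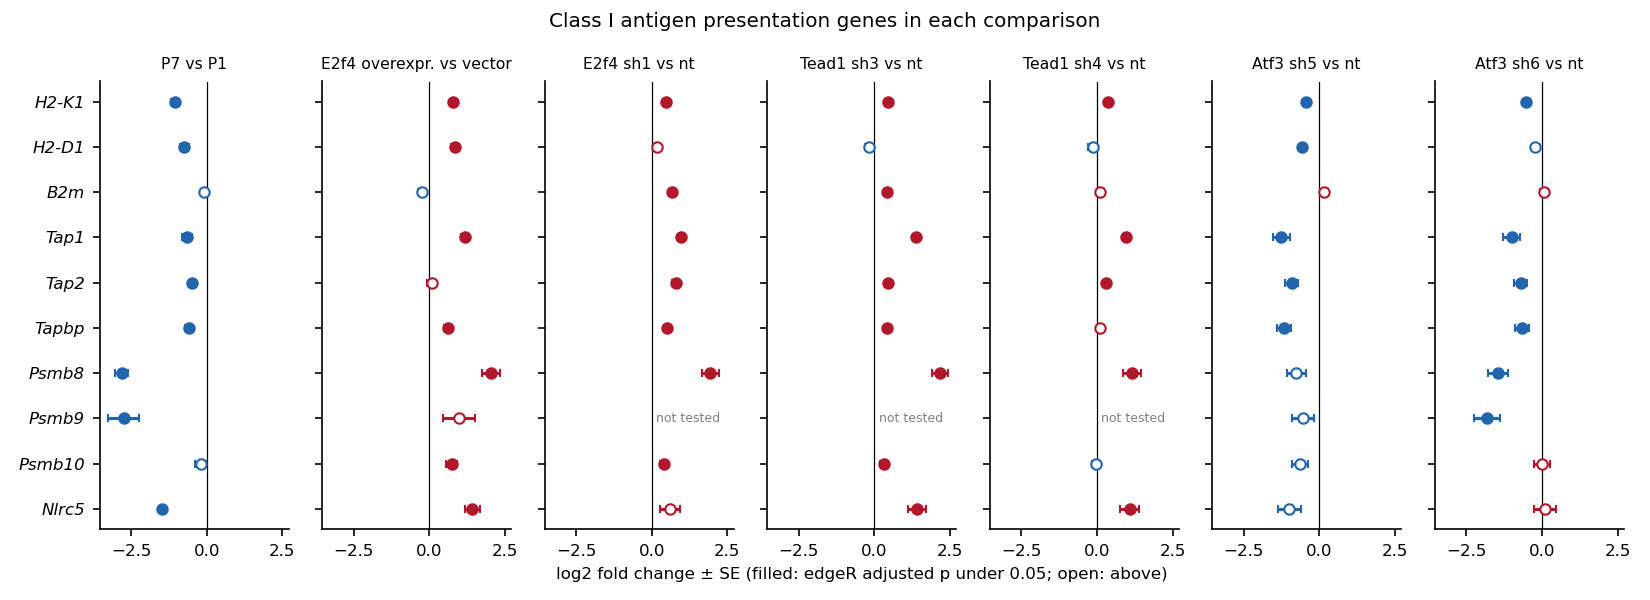
Log2 fold change with its SE (x axis) of the 10 genes (y axis) at P7 against P1 and in each manipulation against its own control, with filled points for an adjusted p under 0.05 by edgeR, blue below 0 and red above. Filled points lie to the left at P7 and with the Atf3 hairpins and to the right in the E2f4 and Tead1 manipulations, Psmb8 lies at -2.80 at P7 and at 2.15 with Tead1 sh3, and the 2 hairpins of Tead1 or Atf3 share their nt libraries.

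After Tead1 knockdown with sh3, 8 of 9 tested genes were higher and passed, where 17.6% of all genes were, with Tap1, Psmb8 and Nlrc5 by more than 2-fold, where 1.99% of all genes were. With sh4, 5 of 9 were higher, where 14.4% of all genes were, and Psmb8 and Nlrc5 by more than 2-fold, where 1.01% of all genes were. The members' medians were 0.44 with sh3 and 0.30 with sh4, and the all-gene medians were 0.00. Both hairpins were compared with the same 3 nt libraries, so the comparisons are not independent. The sequences that the paper lists for sh3 and sh4 also overlap almost fully at a single Tead1 site. A result shared by both hairpins is therefore not one seen with separate target sites.
Tap1 had 8.50, 9.58 and 9.51 CPM with nt, 25, 24.6 and 21.9 with sh3 (log2 fold change 1.37, SE 0.10, adjusted p = 1.9e-12) and 16.1, 18.7 and 19.7 with sh4 (0.98, SE 0.10, adjusted p = 7.7e-09). Psmb8 had 0.694, 0.794 and 1.24 CPM with nt, 4.84, 3.53 and 3.97 with sh3 (2.15) and 2.16, 1.87 and 2.16 with sh4 (1.16). Nlrc5 had 0.751, 1.13 and 1.03 CPM with nt, 2.62, 2.32 and 2.88 with sh3 (1.41) and 1.29, 2.2 and 2.75 with sh4 (1.08). In these 3 genes no library of either hairpin overlapped nt.
H2-K1 rose with both hairpins (0.46 and 0.38), and so did Tap2 (0.44 and 0.30). B2m rose with sh3, from 176, 205 and 177 to 235, 233 and 272 CPM (0.41), and had 179, 207 and 214 CPM with sh4 (0.10, adjusted p = 0.22). Tapbp (0.42) and Psmb10 (0.31) also rose with sh3, and H2-D1 passed with neither hairpin (-0.18 and -0.14). Psmb9 had 10, 17 and 10 counts in the nt, sh3 and sh4 groups and was not tested.

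The 2 Tead1 hairpins differed. Tested directly, 5 genes were lower with sh4 than with sh3, where 4.03% of all genes were: Psmb8 (log2 fold change -0.99), Tap1 (-0.39), Psmb10 (-0.35), B2m (-0.31) and Tapbp (-0.31). Tead1 itself was lowered slightly less by sh4 (0.18 higher than with sh3, adjusted p = 0.0063). The interferon-stimulated genes moved with the difference: 18 of 19 were higher with sh3 against nt (median 2.01), 7 were higher and 1 lower with sh4 (median 0.56), and 18 were lower with sh4 than with sh3 (median -1.39). Their summed level was 113 to 133 CPM with nt, 187 to 264 with sh3 and 109 to 154 with sh4, and its part in the difference was not tested.

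After Atf3 knockdown the direction was the opposite. With sh5, 5 of the 10 genes were lower and passed, where 18.1% of all genes were, with Tap1 and Tapbp by more than 2-fold, where 3.82% of all genes were. With sh6, 6 were lower, where 26.0% of all genes were, with Tap1, Psmb8 and Psmb9 by more than 2-fold, where 10.9% of all genes were. The members' medians were -0.70 and -0.59, and those of all genes -0.03 and -0.02. Tap1 had 53.7, 34.7 and 28.7 CPM with nt, 19.3, 20.2 and 9.64 with sh5 (log2 fold change -1.25, adjusted p = 0.0074) and 19.9, 18 and 20.5 with sh6 (-1.01, adjusted p = 0.012). Tap2 fell with both (-0.92 and -0.71), as did Tapbp, from 108, 110 and 93.2 CPM to 52.8, 58.5 and 26.2 (-1.17) and to 77.4, 60.7 and 58.4 (-0.66). Tap1, Tap2 and Tapbp were therefore lower with each hairpin, against the same 3 nt libraries. The list of 10 other peptide supply and loading genes did not share this direction with both hairpins. Its summed CPM was 4431 to 4585 with nt, 5102 to 5904 with sh5 and 3911 to 4064 with sh6.

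H2-K1 fell from 77.4, 82.5 and 76.4 CPM with nt to 59.1, 61.9 and 52.6 with sh5 (-0.44) and 59.2, 53.8 and 52.7 with sh6 (-0.51). H2-D1 fell with sh5, from 25.4, 26.2 and 26.9 to 17, 19.7 and 16 CPM (-0.57), and had 22.8, 22.5 and 22 CPM with sh6 (-0.22, adjusted p = 0.090). B2m passed with neither hairpin (0.16 and 0.05), at 396 to 488 CPM with nt. Psmb8 had 7.97, 7.90 and 4.20 CPM with nt, 4.06, 3.63 and 4.12 with sh5 (-0.76, adjusted p = 0.084) and 3.84, 1.86 and 1.63 with sh6 (-1.45, adjusted p = 0.0047). Psmb9 fell with sh6 (-1.82), from 0.693 to 1.61 CPM to 0.240 to 0.407 CPM, and had 0.704 to 0.972 CPM with sh5 (-0.53, adjusted p = 0.27). Psmb10 (-0.63 and 0.00) and Nlrc5 (-1.001, adjusted p = 0.060, and 0.10) passed with neither.

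Tested against each other, sh6 was higher than sh5 in H2-D1 (0.35) and Nlrc5 (1.10), where 25.9% of all genes were higher, and lower in Psmb9 (-1.29), where 26.6% of all genes were lower. Both shares of all genes are large, and the 2 hairpins gave different libraries: fibroblast markers summed to 13610 to 14600 CPM with sh6, against 35550 to 37410 with nt and 21510 to 34240 with sh5. Single libraries stood apart. The third sh5 library had 15.1% of reads on no feature, the lowest Atf3 (0.451 CPM) and the lowest Tap1, Tap2 and Tapbp of its group. The first nt library had the highest Tap1 and Nlrc5 (5.05 CPM) and the highest sum of interferon-stimulated genes, in a group ranging from 280 to 1338 CPM against 244 to 288 with sh5 and 285 to 413 with sh6. Without that nt library, 3 of the 10 genes instead of 6 were lower with sh6. Of 19 tested interferon-stimulated genes, 7 were lower with sh5 (median -1.71) and 5 with sh6 (median -0.98), and none was higher with either. The count with sh6 is near the 26.0% of all genes that were lower. Their part in the lower class I genes was not tested.

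Across the comparisons, Psmb8 had the largest range, with log2 fold changes from -2.80 at P7 to 2.15 with Tead1 sh3, and B2m the smallest, from -0.24 with E2f4 overexpression to 0.68 with E2f4 sh1, over the comparisons with P1, vector or nt. H2-K1 passed in all 9 of these comparisons, lower at P3, P5, P7 and with both Atf3 hairpins and higher in the 4 E2f4 and Tead1 comparisons.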

How the data were processed

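Skin fibroblasts were profiled by RNA-seq and ATAC-seq. For the RNA, the authors used Trimmomatic 0.39 for trimming, HISAT2 2.2.1 for alignment (mm10) and HTSeq 0.12.4, without regard to strand, for the deposited raw read counts per gene. For ATAC-seq, the authors aligned with Bowtie2 2.3.5.1 and deposited MACS2 peak lists for each sample (the MACS2 version is not given in the sources used here), which give every peak a fold enrichment and its p and q as -log10 values. The peak lists hold no read counts, so their depth is unknown. Methylation samples (18) were not used here.

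Reads on no feature (5.64% to 15.1%) and ambiguous reads (1.44% to 2.32%), listed for the 28 manipulation libraries, were left out. Counts were filtered and TMM-scaled per experiment and tested with edgeR 4.0.16 (quasi-likelihood, limma 3.58.1, R 4.3.3), with all groups of an experiment in 1 fit and Benjamini-Hochberg adjustment over all genes tested (12310 to 13442). DESeq2 1.42.0 was an alternative, with other scalings, filters, left-out libraries and a replicate block. Ratios and peak percentiles were tested by two-sided exact permutation (SciPy 1.17.1, Python 3.11.15, NumPy 2.4.6, pandas 2.3.3). The tests across genes were tested on simulated data. The genes described were the 10 members throughout, the targeted genes, the extremes of each fixed pathway list by log2 fold change, and the 5 genes most like the members. The members and lists were chosen with earlier results of these data known. Promoter sequences came from RefSeq on GRCm38.p6.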

Additional observations from a re-analysis of the deposited data

Results flagged for a closer look

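Of 60 sets of 4 samples examined for a value apart from the rest, 5 held one, with the gap to the nearest sample as a share of the range above the 95% critical value of Dixon's test. Chance gives about 1 in 20 such sets. H2-D1 stood apart at P7, where replicate 1 had 48.5 CPM and the others 34.0 to 34.2 CPM (0.9882), and at P3, where replicate 1 had 51.1 CPM and the others 42.9 to 44.0 CPM (0.8646). The log2 ratio of Psmb8 to Psmb5 counts stood apart in replicate 2 at P7 (0.9029) and in replicate 3 at P1 (0.8703), and that of Psmb10 to Psmb7 in replicate 2 at P3 (0.8732).

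In 8 cases the effects of 2 hairpins against the same controls differed by a direct edgeR test. Between the Tead1 hairpins, the log2 difference of sh4 from sh3 was -0.991 for Psmb8, -0.3944 for Tap1, -0.3515 for Psmb10, -0.3111 for Tapbp and -0.3057 for B2m. Between the Atf3 hairpins, that of sh6 from sh5 was 1.096 for Nlrc5, 0.3538 for H2-D1 and -1.292 for Psmb9. For Psmb9 the difference rests on few counts per library.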

How the results depend on the processing

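Of 1964 values of the 10 genes under the alternatives, 1846 kept their direction and side of the threshold, 91 no longer passed, 27 came to pass and 0 reversed. At P7 against P1, 8 genes passed whichever library was left out. DESeq2 gave 3 passing genes in place of 5 for Tead1 sh4 against sh3, where leaving out a library gave 3 to 4. Leaving out a library gave 0 to 1 passing genes for P5 against P3 (1 without P5 replicate 1), 3 to 6 for Tead1 sh4 against nt (3 without sh4 replicate 3), 3 to 6 for Atf3 sh6 against nt (3 without nt replicate 1, when Tap1, Tap2 and Tapbp no longer passed), 1 to 3 for Atf3 sh6 against sh5 (1 without sh6 replicate 2 or 3), and 0 to 7 passing ratios of the 9. No ratio passed without a P1 library or without P5 replicate 3. For Psmb8/Psmb5, Psmb9/Psmb6 and Psmb10/Psmb7 at P7, the adjusted p was 0.0514 without P1 replicate 1.

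Same-numbered libraries did not deviate together throughout (correlations of -0.262 to 0.276 between passages), so the numbers were not taken as pairs. Their mean correlation was 0.0745, against -0.0246 between libraries of different number. The replicate 4 libraries correlated positively at every pair of passages (0.105 to 0.276), so a partial pairing remains possible. With the replicate number as a block, 5 genes in place of 3 passed for Atf3 sh6 against sh5, and no other count of passing members moved by more than 1.5 times. Counts of members past 2-fold moved to 0 to 4 for Atf3 sh5, 1 to 3 for P5 against P1 and for Tead1 sh4, 0 to 1 for P3 against P1 and for Tead1 sh4 against sh3, 1 to 2 for P7 against P5 and for E2f4 sh1, and 0 to 2 for Atf3 sh6 against sh5 when a library was left out. The calls lost most often are given here with the share of alternatives in which each still passed. For Psmb10 it was 3 of 11 (E2f4 sh1), 6 of 12 (Tead1 sh4 against sh3) and 10 of 14 (P3 against P1). For Psmb9 it was 4 of 13 (P5 against P1), 6 of 12 (P7 against P5) and 7 of 11 (Atf3 sh6 against sh5). With Atf3 sh6, Tapbp still passed in 7 of 12 and Tap2 in 8 of 12. H2-D1 at P5 against P1 still passed in 10 of 14. Low Psmb9 counts limit its values, and the cause of these changes was not tested.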
